A study of Mus musculus with 60 samples.

Results

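Immediate early genes are transcribed within minutes of a signal, without new protein being made first, and 10 of them are described here: Fos, Fosl1, Jun, Junb, Egr1, Myc, Dusp1, Zfp36, Ier2 and Ier3. They were found by their gene symbols in the array annotation, among 19938 symbols tested, and each symbol had exactly 1 probe set. The cells were R1, an established mouse embryonic stem cell line grown on feeder cells and depleted of them before the experiment. They were exposed for 6 h, attached and undifferentiated, to a compound in 0.1% DMSO or to 0.1% DMSO alone, and each of the 20 groups has 3 arrays (60 in all). The labels class 10 compounds as teratogens and 9 as non-teratogens, and the design asks which RNAs each compound changes and whether the classes differ.

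Every treated group shared the solvent, and no compound was given at a second dose or time. The teratogens were valproic acid (labelled VPA), dimethadione, fluconazole, topiramate and (-)-d-penicillamine at 1 mM, (+/-)-Thalidomide at 0.35 mM, Dexamethazone (dexamethasone) at 0.1 mM, All trans retinoic acid at 0.024 mM, methotrexate at 0.028 µM and 5-azacytidine. For 5-azacytidine the labels conflict: titles give 0.23 µM, the treatment field 23 µM. The non-teratogens were chlorthalidone, hydrochlorothiazide, paracetamol and sulfasalazine at 1 mM, glybenclamide at 0.37 mM, metoclopramide at 0.17 mM, ondansetron at 0.054 mM, loratadine at 0.043 mM and clozapine at 0.028 mM. Doses were capped at 1 mM, at the solubility limit or at the concentration that lowered viability by 10%. The labels do not say that the 3 arrays of a group came from separate cultures, so the p-values measure the spread between these arrays only.

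In many cell types, growth factors and stress act on MAP kinases, which switch on transcription of these genes through serum response factor (SRF) with its ETS-family partners and through CREB. The products are of several kinds. Fos, Fosl1, Jun and Junb are subunits of the transcription factor AP-1, Egr1 is a zinc finger transcription factor, and Myc is a helix-loop-helix factor that supports growth and self-renewal of embryonic stem cells. Dusp1 is a phosphatase that switches MAP kinases off again, Zfp36 (tristetraprolin) speeds the decay of mRNAs with AU-rich ends, and Ier2 and Ier3 are small early response proteins. Their transcripts are mostly short-lived and peak within the first hours in the classical serum response, so the single time of 6 h samples them late.

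Values are the authors' log2 signals, and a difference of 1 is a doubling. Array medians lay between 7.58 and 7.79, and the table had no missing value. Interquartile ranges of the arrays ran from 2.97 to 3.31 and differed partly by group. They were 3.31, 3.31 and 3.30 with sulfasalazine, 3.20, 3.11 and 3.23 with DMSO and 2.97, 2.99 and 3.17 with hydrochlorothiazide. A model with this range therefore cannot fully part it from those groups. A probe set was called when limma's p-value, adjusted by Benjamini and Hochberg over 21789 probe sets, was under 0.05. Differences are given ± the standard error (SE) of that model, with n = 3 arrays in each group. All comparisons with the solvent share the same 3 DMSO arrays, so they are not independent of each other. In RNA from whole cultures, fewer expressing cells and less RNA per cell cannot be told apart. The letter b stands in the titles of 8 arrays in 6 groups (2 each of thalidomide and fluconazole, 1 each of azacytidine, retinoic acid, dexamethasone and loratadine), with no meaning given. Those arrays held lower values of several members, and among the compounds with a called member only loratadine has such an array.

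Over 190 pairs of a member and a compound, 27 were called: 23 rose and 4 fell. Among all probe sets and compounds together 5.04% were called, 2.84% higher and 2.19% lower. Against the mean of the other 18 compounds 46 pairs were called, 20 higher and 26 lower. With that reference the differences of each gene cancel out over the 19 compounds. Its balance of calls therefore cannot test the excess of rises against DMSO. That reference also rests on more arrays than the 3 of DMSO, and its share of all probe sets was not taken. The 27 came from 8 of the 19 compounds, and in each called pair all 3 arrays of the compound lay beyond all 3 DMSO arrays. Many uncalled pairs did so too, among them Fosl1 with topiramate, Dusp1 with dimethadione and Ier2 with paracetamol. Such separation therefore does not set the called pairs apart. Most changes were small. The fold changes ran from 1.13 to 2.51 with a median of 1.26, and 3 pairs exceeded 1.5-fold. Each call was also read with 1 DMSO array or 1 array of its own compound left out in turn. In these fits 17 of the 27 calls held throughout and 10 were lost in some.

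VPA, an antiepileptic drug and histone deacetylase inhibitor, raised 8 of the 10 members: Egr1, Ier3, Zfp36, Jun, Fos, Dusp1, Fosl1 and Junb. With VPA 26.5% of all probe sets were called (15.5% higher, 11% lower). The median difference was 0.37 over the members and -0.01 over all probe sets tested. Sulfasalazine, an anti-inflammatory drug, raised Dusp1, Zfp36, Jun and Egr1 (8.9% called, 5.4% higher and 3.5% lower), and paracetamol, an analgesic, raised Fosl1, Egr1, Jun and Dusp1 (8.76%, 4.61% higher and 4.15% lower). Loratadine, an antihistamine, raised Zfp36, Dusp1 and Jun and lowered Myc (19.2%, 10.9% higher and 8.26% lower). The antipsychotic clozapine raised Zfp36 and Dusp1 (1.31%, 1.1% higher and 0.211% lower). The antiemetic ondansetron raised Dusp1 (0.33%, 0.289% higher and 0.0413% lower). Glybenclamide, a sulfonylurea, raised Jun and lowered Egr1 (9.54%, 6.79% higher and 2.75% lower). The diuretic chlorthalidone lowered Egr1 and Myc (2.58%, 1.44% higher and 1.14% lower).

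**Figure D1:**
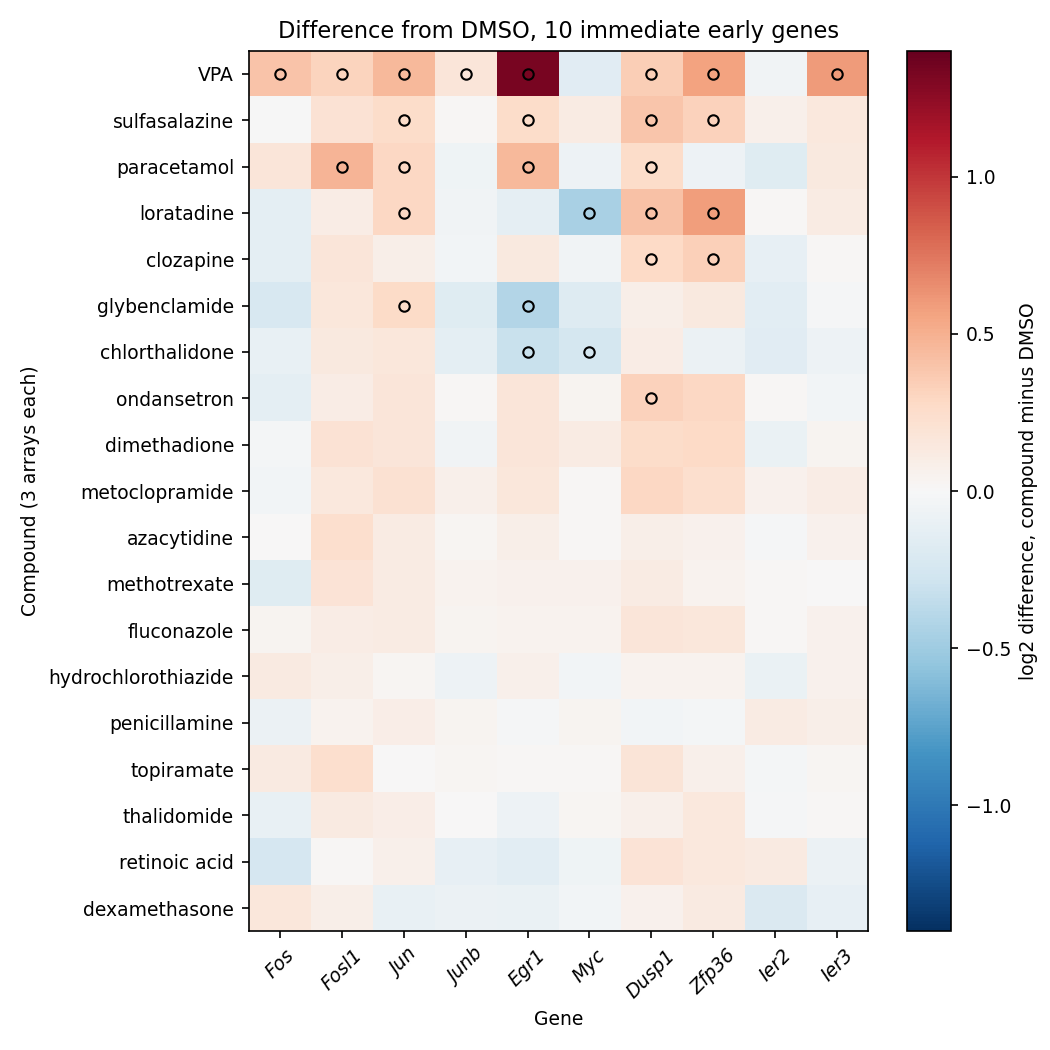
Log2 difference of each of the 10 members (columns) from the mean of the 3 DMSO arrays, for the 19 compounds (rows), as colour, with a circle on each called pair. VPA holds the most circles, 8 of 10, and the strongest colour is Egr1 with VPA at 1.33.

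No member was called by limma with the other 11 compounds. Of all probe sets 9.82% were called with retinoic acid (5.9% higher, 3.92% lower) and 6.25% with dexamethasone (1.51% higher, 4.74% lower). The share was 2.17% with hydrochlorothiazide, 0.197% with metoclopramide and 0.119% with dimethadione, while penicillamine, thalidomide, azacytidine, fluconazole, topiramate and methotrexate had 0%. At an unadjusted p under 0.05, with the share of all probe sets at that threshold in brackets, the members numbered 5 of 10 with dimethadione (10.4%), 5 with metoclopramide (12.6%) and 3 with retinoic acid (24%). They numbered 2 with fluconazole (6.71%), 2 with topiramate (11.8%), and 1 each with azacytidine (8.06%), dexamethasone (22.6%) and methotrexate (6.59%). The count was 0 with penicillamine (8.49%), thalidomide (7.61%) and hydrochlorothiazide (21.7%). With retinoic acid 1 member was called, higher, when its second array, which carries the letter b, was left out, and 1, lower, when the third was. With dexamethasone 1 member was called without its second array.

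Of the AP-1 subunits, Fos read 7.70, 7.73 and 7.59 on the DMSO arrays and 7.97, 8.21 and 8.04 with VPA. The groups did not overlap, and the difference was 0.40 ± 0.09 (adjusted p = 0.000532). VPA was the only compound with which Fos was called. The lowest mean of Fos was with retinoic acid, at 7.51, 7.14 and 7.67, where the second array stood lowest and the third lay inside the DMSO range (adjusted p = 0.0888). Fos had a mean signal of 7.66, below the median of the probe sets tested, 8.09.

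Fosl1, a Fos relative without the strong activation domain, read 9.01, 8.89 and 9.03 with DMSO, the lowest mean of the 20 groups. With paracetamol it read 9.45, 9.48 and 9.42, and with VPA 9.28, 9.28 and 9.29. Both sets of arrays lay wholly above DMSO, and paracetamol, not VPA, had the highest mean. The differences were 0.48 ± 0.07 (adjusted p = 5.02e-06) with paracetamol and 0.31 ± 0.07 (adjusted p = 0.000615) with VPA. Since DMSO lay below all 19 compounds, the reference matters here: against the mean of the other 18 compounds the VPA difference was 0.15 (adjusted p = 0.0163).

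Jun, the main partner of Fos and a target of the JNK kinases, rose with 5 compounds. DMSO gave 9.26, 9.20 and 9.31. VPA gave 9.72, 9.70 and 9.70, the highest mean of the 20 groups, at 0.45 ± 0.07 above DMSO (adjusted p = 4.2e-07). Loratadine (9.59, 9.52 and 9.53) was 0.29 above DMSO (adjusted p = 0.00133). Paracetamol (9.63, 9.54 and 9.47) was also 0.29 above it (adjusted p = 0.00293). These 3 groups lay clear of DMSO, and their calls held with any 1 of their own or the DMSO arrays left out. Glybenclamide (9.48, 9.54 and 9.56) differed by 0.27 (adjusted p = 0.00573), but without the second DMSO array the adjusted p was 0.0518. Sulfasalazine (9.52, 9.55 and 9.48) differed by 0.26 (adjusted p = 0.0125). That call was lost without the second DMSO array (0.109) or its own second array (0.0666), and with the interquartile range of each array in the model (0.229).

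Junb, the AP-1 subunit that often opposes Jun, moved least of those called. It read 8.28, 8.24 and 8.15 with DMSO and 8.41, 8.44 and 8.34 with VPA, a difference of 0.17 ± 0.06 (adjusted p = 0.0326). The ranges did not overlap, but the call rested on single arrays. The adjusted p was 0.0518 without the second DMSO array, 0.173 without the third, 0.0858 without the first VPA array and 0.130 without the second, and 0.0782 after quantile normalisation. No other compound gave a call for Junb.

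Egr1 had the widest range of group means, 1.74, and was the only member called in both directions. It read 9.12, 9.08 and 9.00 with DMSO and 10.48, 10.39 and 10.31 with VPA, where the lowest VPA array stood above every array of the other groups. The difference was 1.33 ± 0.07, a 2.51-fold rise (adjusted p = 3.67e-20). Paracetamol gave 9.52, 9.59 and 9.46, a rise of 0.46 ± 0.07 (adjusted p = 6.8e-06), again without overlap. Sulfasalazine gave 9.27, 9.34 and 9.38, a rise of 0.26 ± 0.07 (adjusted p = 0.015). The sulfasalazine call was lost without the second DMSO array (0.0643), its own second (0.0612) or the third array (0.0585), and with the interquartile range in the model (0.0973).

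Egr1 fell with glybenclamide, to 8.77, 8.65 and 8.56, and with chlorthalidone, to 8.75, 8.75 and 8.76. The differences were -0.41 ± 0.07 (adjusted p = 4.59e-05) and -0.31 ± 0.07 (adjusted p = 0.00496), and both sets lay below every DMSO array. In the order of the 20 means, VPA was followed by paracetamol after a gap of 0.87, by sulfasalazine after 0.20 and by dimethadione after 0.09. At the low end, chlorthalidone lay 0.16 below retinoic acid and glybenclamide 0.10 below chlorthalidone. The neighbours from dimethadione to retinoic acid, DMSO among them in place 13, differed by less than the spread between replicates.

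**Figure D2:**
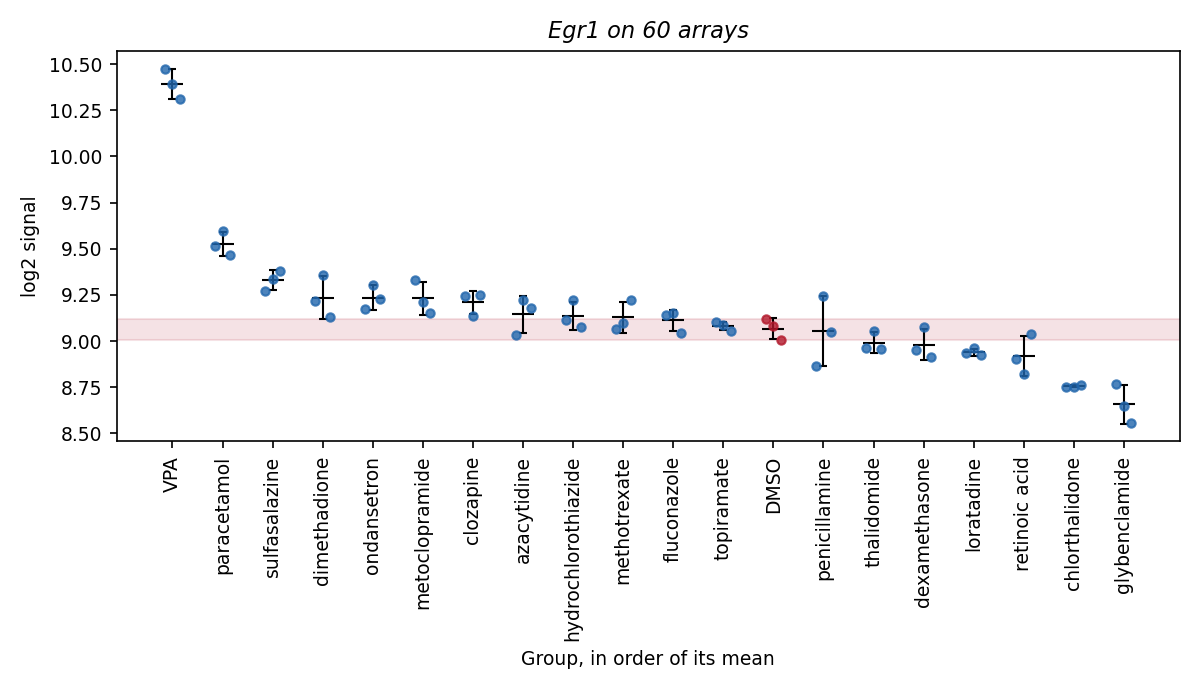
Egr1 log2 signal on each of the 60 arrays, by group, with the group mean and its SD as bars (n = 3 arrays) and the DMSO range shaded. VPA stands alone at 10.31 to 10.48, and the glybenclamide and chlorthalidone arrays lie below the DMSO arrays (9.00 to 9.12).

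Myc fell with 2 compounds and rose with none. DMSO read 11.55, 11.37 and 11.47, and loratadine 10.94, 11.08 and 11.02, with no overlap. The difference was -0.45 ± 0.06 (adjusted p = 2.29e-07), and the call held with any loratadine or DMSO array left out. Chlorthalidone read 11.28, 11.19 and 11.19, at -0.24 ± 0.06 (adjusted p = 0.0166). That call was lost without the first (adjusted p = 0.157) or the third DMSO array (0.0697), without the second (0.0995) or the third chlorthalidone array (0.0873), and in a fit of those 6 arrays alone (0.130). VPA read 11.22, 11.34 and 11.35, below all DMSO arrays, with a difference of -0.16 and an adjusted p of 0.0529. Glybenclamide, at 11.27, 11.29 and 11.28, had an adjusted p of 0.0533.

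Dusp1, the feedback phosphatase, rose with more compounds than any other member, 6 of 19, and Zfp36, the mRNA decay factor, with 4. The promoters of Dusp1, Zfp36 and Jun, the members that rose with most compounds, are shown because SRF, ETS factors and CREB act on genes of this kind. They are RefSeq sequences of GRCm38.p6, 250 bases up to the transcription start, and capitals mark matches to searched motifs. Of the 10 members, 6 had an entry in that table (Fos, Jun, Junb, Dusp1, Zfp36 and Ier3). Dusp1 lies at chr17:26508473-26508722, Zfp36 at chr7:28379229-28379478 and Jun at chr4:95052223-95052472, all on the minus strand.
Dusp1: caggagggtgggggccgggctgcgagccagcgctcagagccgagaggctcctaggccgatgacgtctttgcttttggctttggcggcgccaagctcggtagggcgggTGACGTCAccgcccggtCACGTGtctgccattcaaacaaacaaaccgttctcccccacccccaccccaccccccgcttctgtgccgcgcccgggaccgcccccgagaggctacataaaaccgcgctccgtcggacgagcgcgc
Zfp36: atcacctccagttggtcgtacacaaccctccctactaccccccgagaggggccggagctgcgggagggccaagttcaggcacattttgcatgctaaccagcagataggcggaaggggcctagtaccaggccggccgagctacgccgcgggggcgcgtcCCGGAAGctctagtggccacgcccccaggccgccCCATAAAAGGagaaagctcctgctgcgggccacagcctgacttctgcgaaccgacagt
Jun: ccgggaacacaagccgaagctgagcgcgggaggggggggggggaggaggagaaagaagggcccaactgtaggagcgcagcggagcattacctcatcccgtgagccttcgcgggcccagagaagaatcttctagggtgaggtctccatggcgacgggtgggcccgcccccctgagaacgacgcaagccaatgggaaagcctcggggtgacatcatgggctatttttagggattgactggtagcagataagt
Both strands were searched for the CRE TGACGTCA (in 1.62% of 27025 promoters of the same length), the AP-1 site TGACTCA (4.43%), the E-box CACGTG (6.05%), the ETS core CCGGAAG (7.05%) and the CArG box bound by SRF (1.4%). Dusp1 held a CRE 143 to 136 bases before the start and an E-box at 126 to 121, which did not overlap. Zfp36 held an ETS core at 92 to 86 and a CArG box at 58 to 49. The windows of Jun, Fos, Junb and Ier3 held none of these letters, which says nothing of the factors' binding.

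Dusp1 read 11.26, 11.29 and 11.31 with DMSO. Loratadine gave 11.62, 11.79 and 11.70, and the difference was 0.41 ± 0.07 (adjusted p = 2.89e-05). Sulfasalazine gave 11.66, 11.67 and 11.68, at 0.38 (adjusted p = 0.000614). These and the VPA arrays (11.59, 11.66 and 11.64, at 0.34, adjusted p = 0.000217) all lay above DMSO. The calls held with any of their own or the DMSO arrays left out. Ondansetron (11.55, 11.67 and 11.62), clozapine (11.54, 11.57 and 11.58) and paracetamol (11.57, 11.52 and 11.55) differed by 0.32, 0.28 and 0.26, with adjusted p-values of 0.0267, 0.0376 and 0.0154.

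Those last 3 calls of Dusp1 were fragile, although no array overlapped DMSO. For ondansetron the adjusted p was 0.0959 without the first DMSO array, 0.155 without the second, 0.279 without its own second array and 0.0936 without the third. For clozapine it was 0.146, 0.135 and 0.0825 without the first, the second and the third DMSO array, and 0.106, 0.114 and 0.146 without its own. For paracetamol it was 0.0653 without the first DMSO array and 0.0600 without its own first. In fits of 6 arrays alone it was 0.230 for ondansetron and 0.0720 for clozapine. With the interquartile range in the model it was 0.150 for ondansetron, and with all probe sets tested 0.0549 for clozapine. Metoclopramide, at 11.60, 11.57 and 11.58, also lay above every DMSO array, with an adjusted p of 0.0621. So did all 3 arrays of dimethadione (adjusted p = 0.163), topiramate, fluconazole, chlorthalidone and thalidomide, none of them called.

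Zfp36 read 8.71, 8.61 and 8.72 with DMSO, and 9.14, 9.35 and 9.32 with loratadine. The difference was 0.59 ± 0.08 (adjusted p = 4.74e-08), the largest of this gene. VPA gave 9.28, 9.25 and 9.20, at 0.56 (adjusted p = 4.63e-08). Both groups lay clear of DMSO, and their calls held with any of their own or the DMSO arrays left out. Clozapine (9.08, 9.00 and 8.96) differed by 0.33 (adjusted p = 0.0092). That call was lost without the second DMSO array (0.100) or its own first (0.0952), and in a fit of 6 arrays (0.0759). Sulfasalazine (8.94, 9.00 and 9.05) differed by 0.32 (adjusted p = 0.00619), lost without the second DMSO array (0.0718) or with the interquartile range in the model (0.184).

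DMSO ranked 19 of 20 for both Jun and Dusp1 and 17 of 20 for Zfp36, so their rises shrank against the mean of the other 18 compounds. For Dusp1 the difference was 0.24 with loratadine, 0.21 with sulfasalazine and 0.16 with VPA, all still called. It was 0.14 with ondansetron, 0.09 with clozapine and 0.07 with paracetamol, none of them called. For Jun it was 0.14 with loratadine and 0.14 with paracetamol, called, and 0.12 with glybenclamide and 0.11 with sulfasalazine, not called. For Zfp36 it was 0.16 with clozapine and 0.15 with sulfasalazine, not called.

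**Figure D3:**
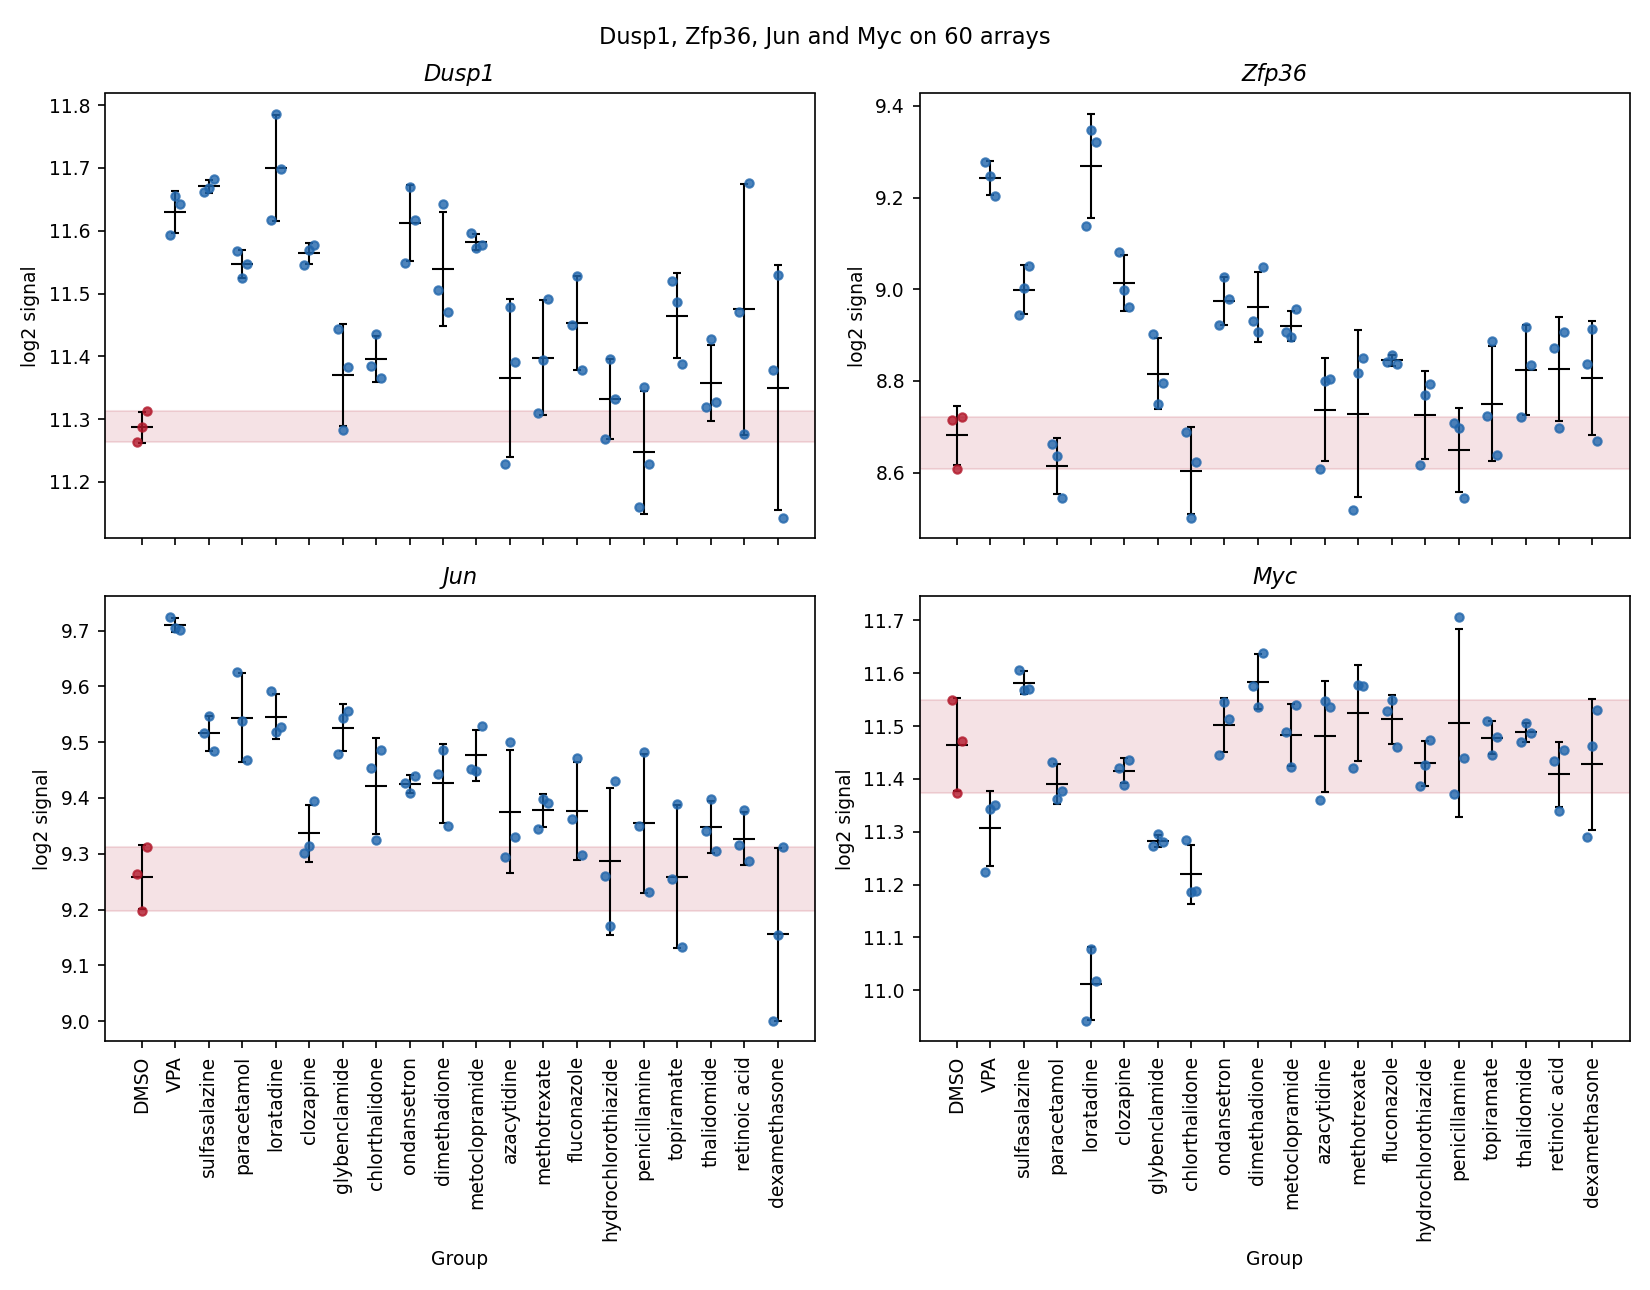
Log2 signal of Dusp1, Zfp36, Jun and Myc on each array, by group, with group means and SDs as bars (n = 3 arrays) and the DMSO range shaded. In the Dusp1 values the DMSO arrays (11.26 to 11.31) lie below every array of loratadine, sulfasalazine and VPA.

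Ier3, an early response protein tied to cell survival, rose with VPA alone. It read 8.61, 8.71 and 8.67 with DMSO and 9.18, 9.30 and 9.29 with VPA, a gap of 0.59 ± 0.06 or 1.51-fold (adjusted p = 1.51e-10). No VPA array came near the DMSO range. Paracetamol (8.83, 8.85 and 8.73) had an adjusted p of 0.201 and sulfasalazine (8.80, 8.78 and 8.84) of 0.131. Ier2 was called with no compound. It read 8.72, 8.77 and 8.72 with DMSO and 8.78, 8.65 and 8.62 with VPA, which overlapped (adjusted p = 0.704). Its widest difference was -0.20 with dexamethasone, at 8.50, 8.64 and 8.48 (adjusted p = 0.0927).

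Compounds given at the same dose of 1 mM were set directly against each other in 3 pairs, with p-values adjusted over all probe sets within each pair. The compounds of a pair share a drug class, and the pairs were chosen with earlier results of these data known. Dimethadione and topiramate were not set against each other. VPA is a branched fatty acid, dimethadione an oxazolidinedione metabolite of the antiepileptic trimethadione, and topiramate a sugar sulfamate. VPA exceeded dimethadione in 6 members and lay below it in 1 (27.6% of probe sets called, 14.2% higher and 13.4% lower). The differences were 1.16 ± 0.07 for Egr1 (adjusted p = 4.18e-18), 0.56 for Ier3 (8.17e-10), 0.43 for Fos (0.000208), 0.28 for Jun (0.000754), 0.28 for Zfp36 (0.00305) and 0.22 for Junb (0.00431). Myc was 0.28 lower, at -0.28 ± 0.06 (adjusted p = 0.000398). Without the first dimethadione array the adjusted p of Junb was 0.0566.

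For the other members a difference between VPA and dimethadione was not shown. The 95% interval was -0.06 to 0.24 for Dusp1, -0.04 to 0.25 for Fosl1 and -0.11 to 0.19 for Ier2. Against topiramate, VPA was higher in 5 members and lower in Myc (30.4% called, 18.1% higher and 12.2% lower). Egr1 differed by 1.31 ± 0.07 (adjusted p = 6.82e-20), Ier3 by 0.56 (6.36e-10), Zfp36 by 0.49 (7.18e-07), Jun by 0.45 (4.15e-07), Fos by 0.27 (0.0173) and Myc by -0.17 (0.0302). Fos lost its call without the second (0.0634) or the third topiramate array (0.0527) or the second VPA array (0.133). Myc lost it without the first (0.0999) or the third topiramate array (0.0718) or the first VPA array (0.175). Junb (0.02 to 0.27), Dusp1 (0.02 to 0.31), Fosl1 (-0.07 to 0.22) and Ier2 (-0.17 to 0.13) were not called.

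**Figure D4:**
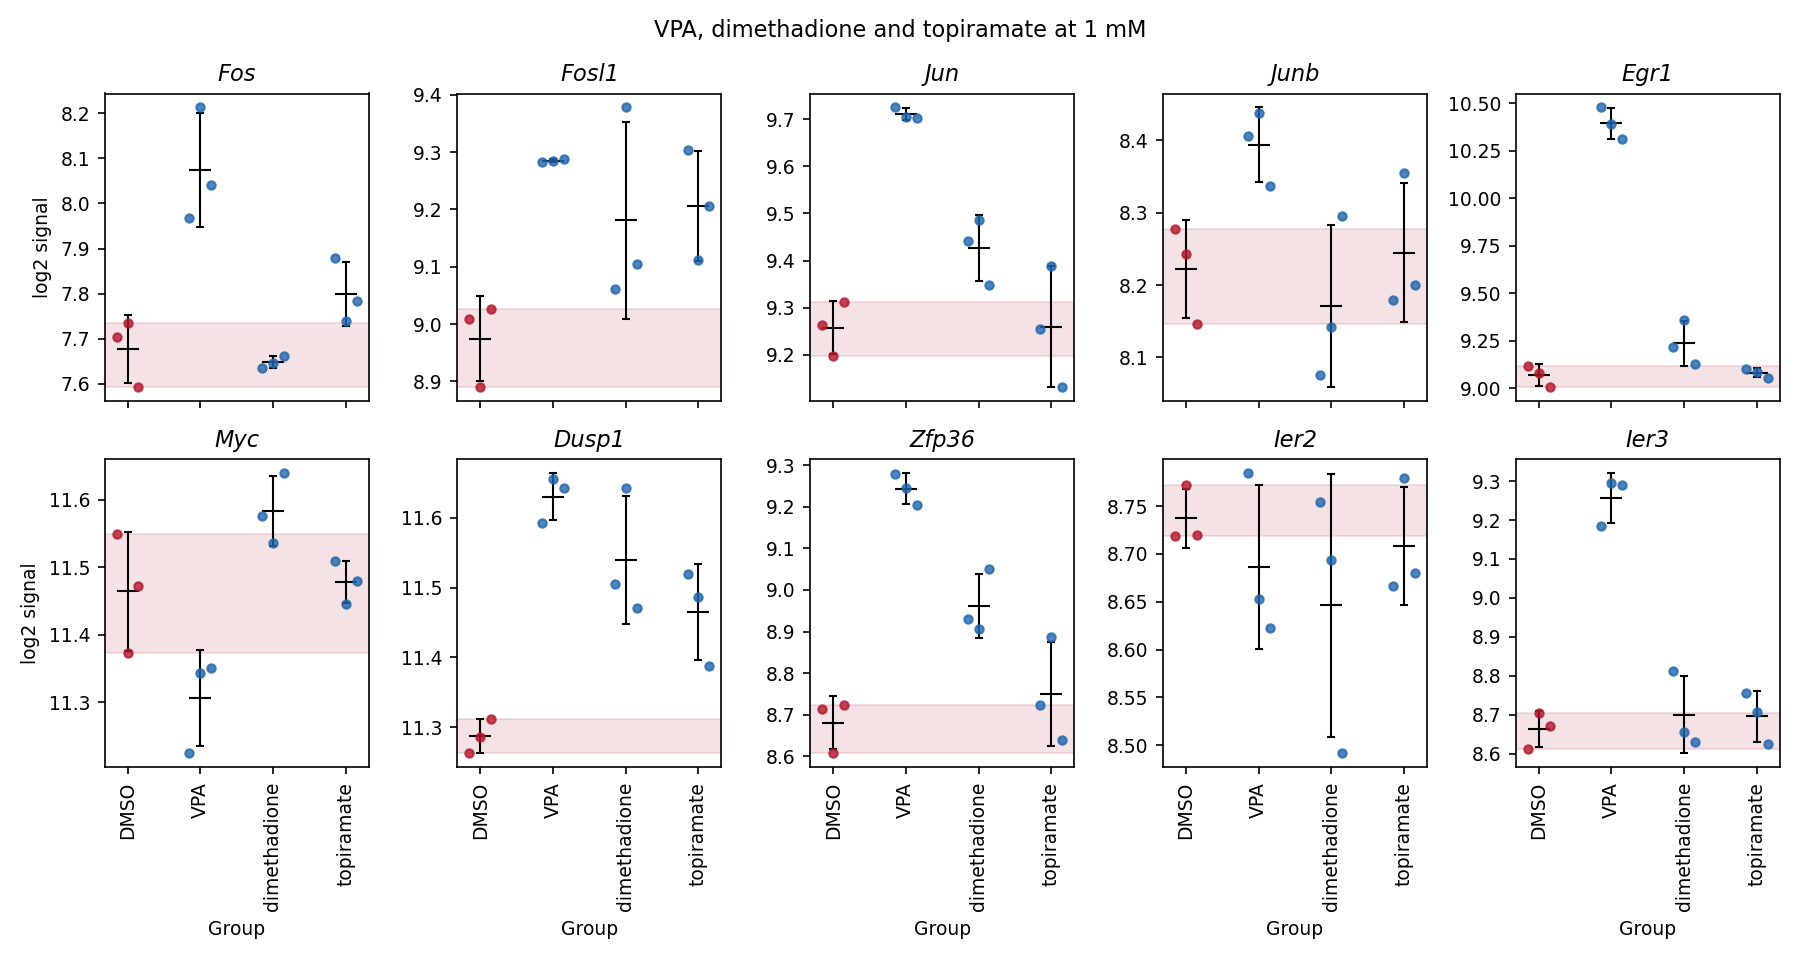
Log2 signal of the 10 members (1 panel each, with its own axis) on the 3 arrays of DMSO, VPA, dimethadione and topiramate, with group means and SDs as bars and the DMSO range shaded. The VPA arrays of Egr1 (10.31 to 10.48) stand far above those of both other compounds, and in Ier2 the 4 groups overlap.

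The thiazide-like diuretic chlorthalidone and the thiazide hydrochlorothiazide, both at 1 mM and both sulfonamides, differed in 2 members (5.33% called, 4.47% higher and 0.858% lower). Egr1 was lower with chlorthalidone by -0.38 ± 0.07 (adjusted p = 0.000333), at 8.75, 8.75 and 8.76 against 9.11, 9.22 and 9.08. Myc was lower by -0.21 ± 0.06 (adjusted p = 0.0359). The Myc call was lost without the second (0.108) or the third chlorthalidone array (0.139), without the first (0.0876), second (0.113) or the third hydrochlorothiazide array (0.0631), in a fit of 6 arrays (0.147) and with all probe sets (0.0516). The 95% intervals of the other 8 members reached from -0.41 for Fos to 0.27 for Jun. Those of Fos (-0.41 to -0.05) and Ier3 (-0.26 to -0.007) lay wholly on the negative side, but neither was called (adjusted p = 0.132 and 0.215).

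No difference between the classes was detected. With the compound as the unit, 10 teratogens against 9 non-teratogens, limma called 0 members and 0 of 21789 probe sets, and 955 probe sets (4.38%) had an unadjusted p under 0.05. The smallest member p-values were 0.0629 for Dusp1 (-0.10 ± 0.05, teratogens minus non-teratogens) and 0.0782 for Myc (0.10 ± 0.06), and every adjusted p of a member was at least 0.976. For Egr1 the means were 9.20 and 9.11, with SDs over compounds of 0.43 and 0.28, both wider than the difference.

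Likeness between members was uneven. Over the 20 group means, as a description with shared arrays and no test, Pearson's r was 0.89 for Egr1 and Ier3, 0.78 for Dusp1 and Zfp36, 0.73 for Egr1 and Fos and 0.64 for Dusp1 and Jun. Over the 19 means without VPA the values were 0.60, 0.77, 0.48 and 0.61. For Egr1 and Dusp1 it was 0.46 with VPA and 0.42 without. Leaving out VPA thus lowered the values of Egr1 with Ier3 and with Fos more than the other 3. For Myc and Jun it was -0.37 with VPA and -0.32 without. Within groups, the deviations of single arrays from their group mean had a median r of 0.31 over the 45 pairs of members and were above 0 in 35. For Myc and Jun that within-group r was 0.44, of the opposite sign to the group means.

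All 8 arrays with the letter b held member values below their group mean on average. Their mean standardised deviation ran from -1.22 to -0.09, with a range over all 60 arrays of -1.22 to 1.33. In a model with the letter as a term, read after these values were seen, the arrays with b were lower in Dusp1 by -0.19 ± 0.03 (adjusted p = 0.000539), in Zfp36 by -0.16 ± 0.04 (0.00877) and in Fosl1 by -0.13 ± 0.04 (0.031). The other 7 members were not called, and over all probe sets 9.22% were called, 6.5% lower and 2.72% higher. With that term all 27 calls against DMSO were kept and the total was 37, of which 31 were higher. The share of all probe sets called against DMSO in that model was not taken.

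Other early response genes, 47 measured of 48 listed, moved in both directions. With VPA 12 rose and 8 fell, with Rhob (0.49) and the stress factor Atf3 (0.42) up and the growth arrest genes Gadd45g (-0.57) and Gadd45a (-0.52) down. Loratadine raised 16 and lowered 6, led by the clock-linked repressor Bhlhe40 (0.56), Atf3 (0.55), Rhob (0.48) and Per1 (0.47). Retinoic acid, which called no member, raised 11 of this list and lowered 9, with Bhlhe40 (0.85), the kinase Plk3 (0.80) and Atf3 (0.45) up and the Zfp36 relative Zfp36l1 (-0.45) down. Sulfasalazine raised 7 and lowered 1, and paracetamol raised 6 and lowered 4, led by Btg2 (0.70). Of all probe sets 26.5% were called with VPA, 19.2% with loratadine, 9.82% with retinoic acid, 8.9% with sulfasalazine and 8.76% with paracetamol. Medians of the list, against those of all probe sets, were 0.05 against -0.01 with VPA and 0.07 against -0.04 with loratadine. They were 0.09 against -0.01 with sulfasalazine, -0.03 against -0.03 with retinoic acid and 0.01 against 0.01 with paracetamol.

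Of 24 listed kinases and factors that act upstream of the members, 18 were measured. With VPA 4 rose and 3 fell, with the CREB relative Atf1 at -0.51 and the kinase gene Rps6ka5 at 0.35. Retinoic acid raised 4 and lowered 1, paracetamol raised 3 and lowered 1, and dexamethasone lowered 3. Glybenclamide raised 2 and sulfasalazine 1. With loratadine 3 rose and 3 fell. The SRF coactivator Mrtfb (-0.48) and Srf itself (-0.23, adjusted p = 0.0352) were lower, and the kinase genes Mapk9 (0.23) and Braf (0.19) were higher. Cytoskeletal targets of SRF, 14 measured of 15, had few calls, with 1 called up with VPA and 1 called down with dexamethasone. Of 10 Myc paralogs and partners, VPA raised 5, with Mxi1 at 0.39 and Mxd4 at 0.37. It lowered 2, Mycn (-0.44) and Mga (-0.35). Retinoic acid lowered 3, with Mycn at -0.34, and loratadine lowered Mycn alone. Paracetamol raised Mxd4 (0.34) and Mxd1 (0.32) and lowered Mga (-0.42). Of all probe sets 26.5% were called with VPA (15.5% higher, 11% lower), 19.2% with loratadine, 9.82% with retinoic acid, 8.76% with paracetamol and 6.25% with dexamethasone. The share was 9.54% with glybenclamide and 8.9% with sulfasalazine.

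The 10 embryonic stem cell markers (Pou5f1, Sox2, Nanog and others, Klf4 being also on the early response list) had a mean of 12.19 with DMSO and group means from 11.90 to 12.28. The lowest was VPA, where 6 of 10 fell, and the next was paracetamol at 12.01, where 6 fell. Of all probe sets 11% were called lower and 15.5% higher with VPA, and 4.15% were called lower with paracetamol. Nanog fell by 0.68 with VPA and by 0.28 with paracetamol. The 12 fibroblast markers, for feeder cells, had group means from 8.76 to 8.89 and arrays from 8.73 to 9.01. With DMSO Lum had a signal of 4.46, Fn1 of 12.89 and Acta2, which is also on the SRF target list, of 12.69, so the list mean hides unlike signals. With VPA 1 of them rose (Thy1, 0.48) and 1 fell. The part of either marker set in the changes of the immediate early genes was not tested.

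The 5 other genes whose 20 group means followed Egr1 most closely were Fam210b (r = 0.95), Lypd6 (0.94), Nrip3 (0.92), Efr3b (0.91) and Bend7 (0.91). Without VPA the values were 0.82, 0.77, 0.71, 0.66 and 0.67. Their own differences with VPA were 0.60, 0.73, 0.83, 0.74 and 0.65, smaller than that of Egr1.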

How the data were processed

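RNA was hybridised to 60 Affymetrix mouse gene arrays. The authors deposited log2 signals per probe set, made with RMA, per the submitters' processing notes (version, options and genome build: not given in the sources used here). Of its 35556 probe sets the annotation covers 23410, of which 21789 have a single symbol and were tested, 1621 have several, and 12146 have no entry. Symbols were updated through gene IDs to RefSeq of GRCm38.p6. No further normalisation or filter was applied.

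One limma model (limma 3.58.1, R 4.3.3) with a mean per group was fitted to all 60 arrays (40 residual and 7.31 prior degrees of freedom). It was also run on simulated data with independent noise for each probe set and array. That simulation held no shift shared by the probe sets of an array, so it cannot show false calls from such shifts. Each compound was compared with DMSO, with adjusted p under 0.05 as the threshold. Classes were compared over 19 compound means. Arrays give no read depth; 3 arrays per group limit the precision. Replicate numbers follow deposition order and pair nothing. The members, lists and comparisons were chosen with earlier results of these data known. All members were named, with each called pair's arrays, the 4 called genes of a list that changed most (the leading ones are printed) and the 5 genes most like the member of widest range. Alternatives were quantile normalisation, a filter at the median level, all probe sets, 6 arrays alone, trend and robust eBayes, another reference, the letter b, the interquartile range and leaving out each array.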

Additional observations from a re-analysis of the deposited data

Results flagged for a closer look

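Compounds of the same drug class and dose differed in several members, by a limma test of the difference itself. VPA minus dimethadione was 1.16 for Egr1, 0.56 for Ier3, 0.43 for Fos, 0.28 for Jun, 0.28 for Zfp36, 0.22 for Junb and -0.28 for Myc. VPA minus topiramate was 1.31 for Egr1, 0.56 for Ier3, 0.49 for Zfp36, 0.45 for Jun, 0.27 for Fos and -0.17 for Myc. Chlorthalidone minus hydrochlorothiazide was -0.38 for Egr1 and -0.21 for Myc. The calls of Myc between the diuretics, of Fos and Myc between VPA and topiramate, and of Junb between VPA and dimethadione were lost when single arrays were left out, and that of Myc between the diuretics also with all probe sets or 6 arrays alone.

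Egr1 moved in opposite directions against DMSO, with every array of a group on its side of the DMSO arrays. It was 1.33 higher with VPA, 0.46 with paracetamol and 0.26 with sulfasalazine, and the difference was -0.31 with chlorthalidone and -0.41 with glybenclamide. The differences between these compounds were not tested.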

How the results depend on the processing

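No paired analysis was possible because the labels carry no replicate numbers. None of the 27 called pairs changed direction. The balance of rises and falls differed with the other reference, where the differences of a gene cancel out over the compounds by construction. Of the 27 calls against DMSO, 26 were kept after quantile normalisation, 26 of 26 with the filter (which drops Fos), 26 with all probe sets, 27 with trend and robust settings, 27 with the letter b, 23 with the interquartile range, 20 with the other 18 compounds as reference and 23 with 6 arrays alone. In all, 17 were kept under every alternative.

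With the other 18 compounds as reference the total was 46 (20 higher, 26 lower), and the count was 6 with dexamethasone, 5 with retinoic acid, 4 with glybenclamide, 3 with hydrochlorothiazide, 2 with penicillamine, 1 with topiramate and 0 with clozapine and ondansetron. With the filter it was 4 with glybenclamide, 2 with ondansetron and 1 with metoclopramide, where trend and robust settings also gave 1. With all probe sets clozapine had 1 and chlorthalidone minus hydrochlorothiazide 1. With 6 arrays alone, chlorthalidone had 1, clozapine 0, ondansetron 0 and the diuretic pair 1. With the interquartile range glybenclamide had 4, ondansetron 0 and sulfasalazine 1. With the letter b, dimethadione and ondansetron had 2 each and azacytidine, retinoic acid, metoclopramide and fluconazole 1 each. The share of all probe sets called was not taken under these alternatives or with single arrays left out, so these counts have no background beside them. The cause was not tested.

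Leaving out 1 array gave totals from 21 to 25 when it was a DMSO array (21 without the second). The count ran from 7 to 8 with VPA, 3 to 4 with paracetamol, 1 to 4 with sulfasalazine (1 without the second DMSO array), 2 to 3 with glybenclamide, 1 to 2 with chlorthalidone and 0 to 1 with clozapine, ondansetron, dexamethasone and retinoic acid. It stayed at 4 with loratadine and at 0 with the other compounds. It ran from 6 to 8 for VPA minus dimethadione, 4 to 6 for VPA minus topiramate and 1 to 2 for the diuretic pair. The class comparison gave 0 calls under its alternatives, also without VPA. Each member has 1 probe set, so averaging probe sets was not run.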
